A study of Mus musculus with 6 samples.

Results

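Ndufv1, Ndufc1 and Ndufb11 encode subunits of respiratory complex I, and Cox5a, Cox6c and Cox8a encode subunits of respiratory complex IV. These 6 genes were followed in hearts of Pgc1b knockout mice and wild-type mice. They were chosen by name, with earlier results of these data known, as the genes of these complexes with values in the deposited table. That is 6 of 494 genes measured. They were represented by 8 of the 643 probe sets for genes with values, since Ndufv1 and Ndufb11 had 2 each. The platform annotation lists 16 probe sets for the 6 genes, and the other 8 had no values in the deposited table.

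One microarray of the Affymetrix 3' type was hybridised per heart, with 3 Pgc1b knockout hearts and 3 wild-type hearts that the labels call biological replicates. Both genotypes came from the same mixed background of sv129 and C57BL/6, had free access to food and were housed under 1 light cycle. The knockout removes Pgc1b, named Ppargc1b in current tables; whether the deletion is limited to a cell type, and the sex and age of the mice, are not given in the sources used here. Ppargc1b itself was not among the 494 genes measured, so the labels of the hearts have no check by that gene.

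Complex I, the NADH dehydrogenase of the inner mitochondrial membrane, takes electrons from NADH, hands them to ubiquinone and pumps protons. Complex IV, cytochrome c oxidase, passes electrons from cytochrome c to oxygen and pumps protons as well. Each complex joins core subunits encoded by mitochondrial DNA with subunits encoded in the nucleus, and all 6 genes here are nuclear. The beating heart makes most of its ATP through this chain. PGC-1 coactivators, which bind no DNA themselves, are known to work with the oestrogen-related receptors and with nuclear respiratory factors on genes of this kind.

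Promoter sequence was available in RefSeq (GRCm38.p6) for 5 of the 6 genes, all except Cox6c. The stretches shown are the 100 bases before the transcript start of Cox8a and Ndufc1, whose 95% confidence intervals of the difference between genotypes lay below 0, and of Ndufb11, whose means differed least. All are written 5′ to 3′ on the strand of the gene, which for each of the 3 is the minus strand, and capitals mark bases of a motif match. They lie at chr19:7217617-7217716 (Cox8a), chr3:51408956-51409055 (Ndufc1) and chrX:20617620-20617719 (Ndufb11).
Cox8a: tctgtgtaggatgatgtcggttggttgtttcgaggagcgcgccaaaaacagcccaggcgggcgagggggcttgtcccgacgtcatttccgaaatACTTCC
Ndufc1: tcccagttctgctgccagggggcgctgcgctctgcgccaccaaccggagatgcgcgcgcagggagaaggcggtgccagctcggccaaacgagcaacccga
Ndufb11: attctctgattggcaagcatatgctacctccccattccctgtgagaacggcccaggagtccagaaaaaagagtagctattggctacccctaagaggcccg

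Motifs of factors linked to respiratory genes, 4 in all, were searched on both strands in the windows of 250 bases before to 50 bases after the start, and no match overlapped a match of another motif. The oestrogen-related receptor element, TNAAGGTCA, matched none of the 5 windows, against 1.03% of 21262 windows of protein-coding genes. The NRF1 core, GCGCATGC, matched none of them either, against 3.51% of all windows. The ETS site, CCGGAAGT, bound by GABP and other ETS factors, matched the Cox8a window at 2 places and no other member window, against 5.15% of all windows. The YY1 site, AANATGGCG, matched the windows of Ndufc1 and Ndufb11, against 3.12% of all windows. A match describes the letters in the window only.

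The matched sites are shown with their flanks and with the motif in capitals. In Cox8a the first ETS match, chr19:7217615-7217622, spans the transcript start and the second, chr19:7217578-7217585, starts at base 32 of the transcript; both read as the opposite strand of the motif. The YY1 match of Ndufc1, chr3:51408925-51408933, starts at base 23 of the transcript, and that of Ndufb11, chrX:20617822-20617830, starts at position -211 from it.
Cox8a, first ETS match: tttccgaaatACTTCCGGctcgggcgtc
Cox8a, second ETS match: cagcgccggaACTTCCGGctggttcggc
Ndufc1, YY1 match: cctgcggaacAAGATGGCGccgtccgtag
Ndufb11, YY1 match: tcaccaacacAAAATGGCGacgagaagag

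The deposited values are log2 signals, so a difference of -1 would mean that the knockout signal is 50% of the wild-type signal. The array medians over the 643 probe sets lay between 7.45 and 7.61. Hybridisation spikes, bacterial and phage RNAs added to each sample to follow array handling, averaged 9.55, 9.68 and 9.32 on knockout arrays against 10.15, 9.84 and 9.69 on wild-type arrays over 18 probe sets, all knockout arrays being lower than all wild-type arrays (exact two-sided permutation test, p = 0.1, the smallest that 3 against 3 can give). The 3' minus 5' signal of Actb, a measure of RNA integrity, was 0.63 ± 0.11 in knockout hearts and 0.75 ± 0.02 in wild-type hearts (SD, n = 3 each), also with no overlap, and that of Gapdh was 0.08 in both. Of 20 heart muscle markers 2 were measured. The cardiac actin gene Actc1 stood at 14.12 ± 0.01 in knockout hearts and 14.11 ± 0.03 in wild-type hearts (SD, n = 3 each), and the connexin gene Gja1 at 10.71 and 10.71. Of the markers of other cell types, Tie1 of endothelium (difference -0.08) and Bpgm (0.31) and Car1 (0.13) of red cells were measured, and the groups overlapped in all 3. The part of the cell make-up in the differences was not tested.

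All 6 subunit genes had a lower mean signal in knockout hearts, against 47.6% of all 494 genes. Their differences ran from -0.02 for Ndufb11 to -0.32 for Cox8a with a median of -0.13, against a median of 0.01 over all genes. In 3 of the 6, Ndufc1, Cox6c and Cox8a, every knockout heart lay below every wild-type heart, against 9.92% of all genes. No member passed the test over all genes: limma called 0 of 6 at an adjusted p under 0.05 and 0% of the 494 genes, of which 57 had an unadjusted p under 0.05. Ndufc1 and Cox8a were the 2 members with an unadjusted p under 0.05, where 5.87% of all genes had such a p and a lower knockout mean. These are whole hearts, in which fewer heart muscle cells and less RNA per cell cannot be told apart.

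**Figure D1:**
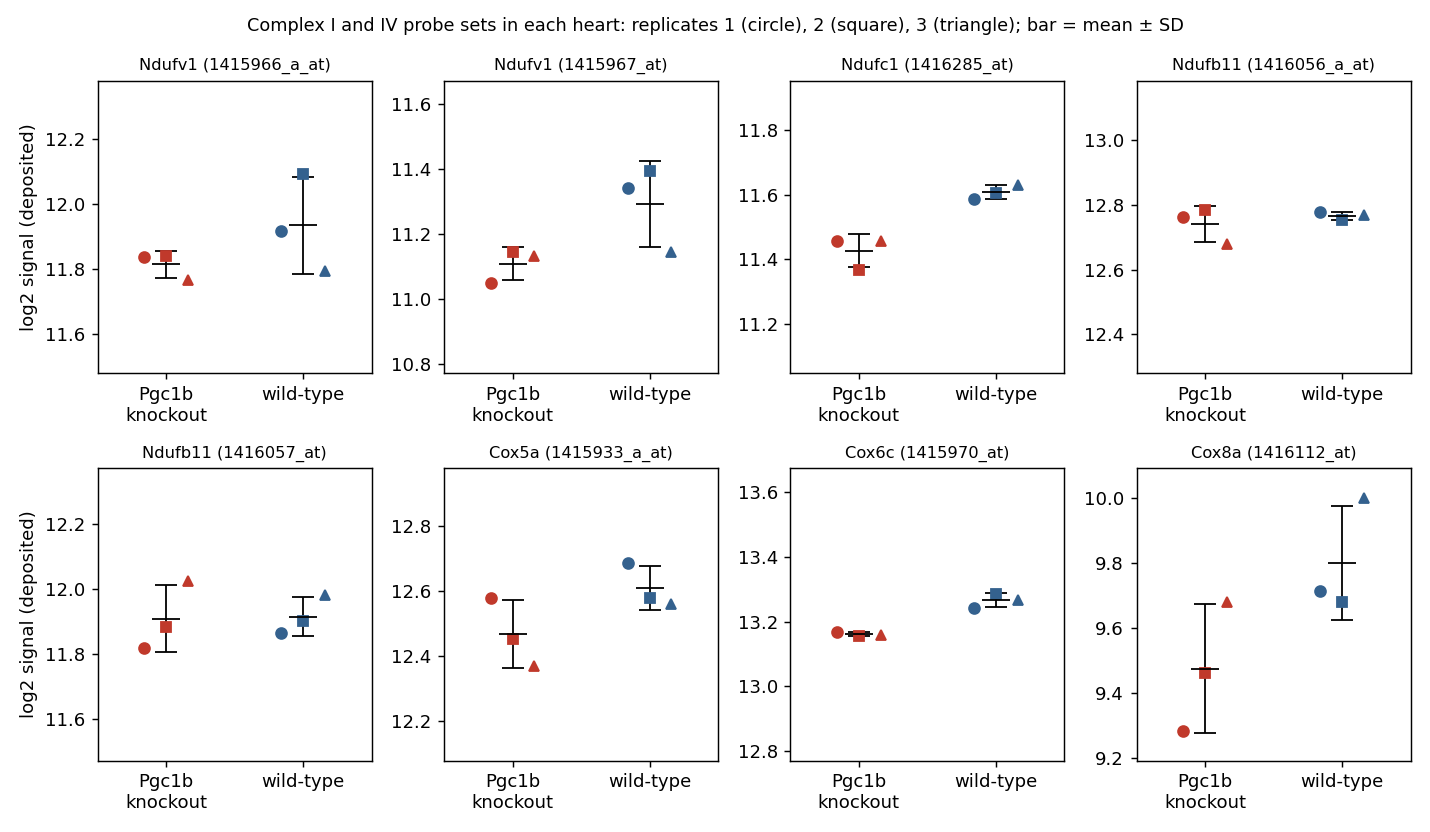
Deposited log2 signal of each of the 8 probe sets (vertical axis, all panels spanning the same width) in 3 Pgc1b knockout hearts (red, left) and 3 wild-type hearts (blue, right), with mean ± SD as bars. The groups are apart in Ndufc1, Cox6c and, by a margin of 0.002, in Cox8a, and overlap in the other 5 panels.

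Among the complex I genes, Ndufv1 encodes the subunit that binds the flavin cofactor and accepts the electrons of NADH. Its brighter probe set (1415966_a_at) read 11.84, 11.84 and 11.77 in the knockout hearts against 11.92, 12.09 and 11.80 in the wild-type hearts. The third wild-type heart was as low as the knockout hearts, so the groups overlapped. The means were 11.82 ± 0.04 in knockout hearts and 11.94 ± 0.15 in wild-type hearts (SD, n = 3 each), a difference of -0.12 with a 95% interval of -0.33 to 0.09 (limma, adjusted p = 0.649). Without the second wild-type heart, the highest, the difference was -0.04, and without the third, the lowest, it was -0.19. With the hybridisation spike level of each array as a covariate it was -0.05.

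The dimmer probe set of Ndufv1 (1415967_at) gave a similar picture over the 6 hearts. It read 11.05, 11.15 and 11.13 in the knockout hearts and 11.34, 11.39 and 11.14 in the wild-type hearts. Again the third wild-type heart was the low one, and it lay 0.002 below the highest knockout heart. The difference was -0.18 (95% interval -0.39 to 0.02; limma over all 643 probe sets, adjusted p = 0.508).

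Ndufc1, a small accessory subunit of the membrane arm of complex I, had the widest gap between the groups among the 6 genes. Its signal was 11.46, 11.37 and 11.46 in the knockout hearts and 11.59, 11.60 and 11.63 in the wild-type hearts. The gap between the highest knockout and the lowest wild-type heart was 0.13, wider than the range within either genotype, which was 0.09 in knockout and 0.04 in wild-type hearts. The knockout level was 88.3% of the wild-type level, with a 95% interval of 79.5% to 98.0% (difference -0.18 ± 0.06, SE; limma, unadjusted p = 0.0257, adjusted p = 0.383). Of the 494 genes, 8.70% had a lower difference than Ndufc1.

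Ndufb11, another accessory subunit of the membrane arm, differed least. Its brighter probe set (1416056_a_at) read 12.76, 12.78 and 12.68 in the knockout hearts against 12.78, 12.75 and 12.77 in the wild-type hearts. Only the third knockout heart lay below the wild-type range, and the second lay above it. The difference was -0.02, with a 95% interval of -0.18 to 0.13 that leaves room for a knockout level between 88.5% and 109.2% of wild type (limma, adjusted p = 0.899). The sign turned without the third knockout heart (0.01) and with the spike level as a covariate (0.03).

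The dimmer probe set of Ndufb11 (1416057_at) read 11.82, 11.88 and 12.02 in the knockout hearts and 11.86, 11.90 and 11.98 in the wild-type hearts. In it the third knockout heart was the highest of all 6, whereas in the brighter probe set the same heart was the lowest. The difference was -0.01 (95% interval -0.20 to 0.18; limma over all probe sets, adjusted p = 0.980). The 2 probe sets of Ndufb11 had the least similar profiles of all 28 pairs of member probe sets, with a root mean square difference of 1.84 after each was scaled to mean 0 and SD 1 over the 6 hearts, while the 2 of Ndufv1 stood at 0.55.

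**Figure D2:**
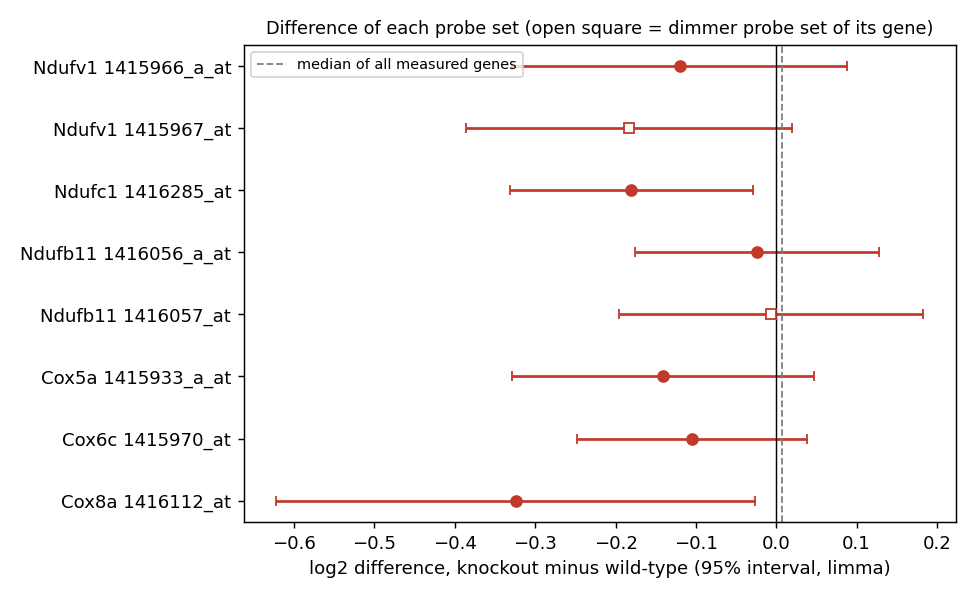
Difference between knockout and wild-type hearts for the 8 probe sets on the log2 scale (horizontal axis), with 95% intervals from limma; filled circles are the probe set used for the gene and open squares the dimmer one. All 8 points lie below 0, and the intervals of Ndufc1 and Cox8a end below 0, at -0.03 each.

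Among the complex IV genes, Cox5a encodes an accessory subunit on the matrix side of the enzyme. Its signal was 12.58, 12.45 and 12.37 in the knockout hearts and 12.69, 12.58 and 12.56 in the wild-type hearts. In Cox5a 2 knockout hearts lay below all wild-type hearts, and the first lay inside the wild-type range, above wild-type hearts 2 and 3. The means were 12.47 ± 0.11 in knockout hearts and 12.61 ± 0.07 in wild-type hearts (SD, n = 3 each), a difference of -0.14 (95% interval -0.33 to 0.05; limma, adjusted p = 0.552). With the hybridisation spike level of each array as a covariate the difference was -0.03, and without the third knockout heart it was -0.09.

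Cox6c, a subunit that crosses the inner membrane once, had the narrowest spread of the 6 genes in knockout hearts. It read 13.17, 13.16 and 13.16 in the knockout hearts against 13.24, 13.29 and 13.27 in the wild-type hearts. The groups were apart by 0.08, while the knockout hearts spanned 0.01 and the wild-type hearts 0.04. The knockout level was 93.0% of the wild-type level, with a 95% interval of 84.2% to 102.7% (difference -0.10 ± 0.06, SE; limma, adjusted p = 0.558). The interval is wider than the spread of these 6 values alone, because limma draws the variance of each gene towards that of all genes. With a prior variance that follows the signal level the adjusted p was 0.213, and after a further quantile normalization the difference was -0.05.

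Cox8a is the form of the smallest subunit that most tissues make. A second form, Cox8b, is typical of heart and skeletal muscle in the mouse and was not among the genes measured. The signal of Cox8a was 9.28, 9.46 and 9.68 in the knockout hearts and 9.71, 9.68 and 10.00 in the wild-type hearts. The groups did not overlap, but the highest knockout heart, at 9.679, and the lowest wild-type heart, at 9.681, were nearly equal. Both genotypes were spread widely, over 0.40 in knockout and 0.32 in wild-type hearts. The knockout level was 79.9% of the wild-type level, with a 95% interval of 65.0% to 98.2% (difference -0.32 ± 0.13, SE; limma, unadjusted p = 0.0365, adjusted p = 0.383).

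Cox8a stood at rank 8 from the lowest difference of the 494 genes. The covariate for the spike level widened its difference to -0.55. Leaving out the third wild-type heart, the highest, reduced it to -0.22, and leaving out the third knockout heart took it to -0.43. In both genotypes the third heart was the highest for Cox8a, by 0.22 over the next knockout heart and 0.29 over the next wild-type heart.

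**Figure D3:**
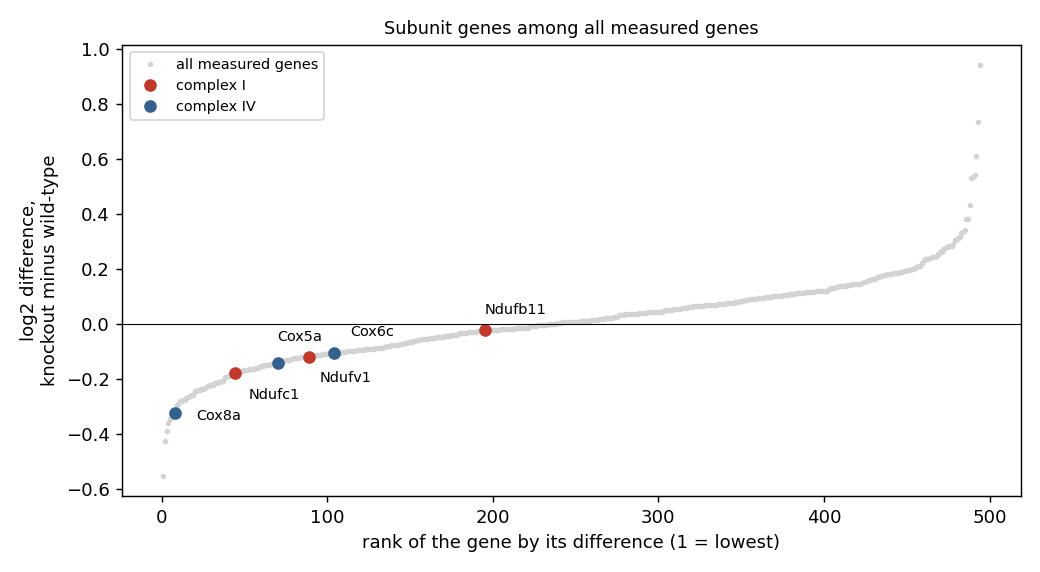
All 494 genes ordered by their difference between knockout and wild-type hearts (horizontal axis, rank; vertical axis, log2 difference), with complex I genes in red and complex IV genes in blue. The 6 genes lie in the lower part of the order, between rank 8 for Cox8a and rank 195 for Ndufb11.

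The average over the 6 genes was nearly the same in all hearts of a genotype. It was 11.85, 11.84 and 11.85 in the knockout hearts against 11.99, 12.00 and 12.00 in the wild-type hearts, a difference of -0.15. The SD of the average was 0.004 in knockout and 0.008 in wild-type hearts, and without Cox8a it was 0.04 and 0.03. Within each genotype the genes deviated in opposite directions: the third knockout heart was high for Cox8a (0.20 above the knockout mean) and low for Cox5a (-0.10), Ndufb11 (-0.06) and Ndufv1 (-0.05), and the third wild-type heart was high for Cox8a (0.20) and low for Ndufv1 (-0.14). Without Cox8a the average over the other 5 genes was 12.36, 12.32 and 12.29 in knockout hearts and 12.44, 12.46 and 12.40 in wild-type hearts, a difference of -0.11 with the groups still apart. The hybridisation spikes were lower on the same arrays (-0.38). With the spike level in the fit the difference stayed negative in 5 of the 6 genes, Ndufb11 being the exception. It shrank for Cox5a (-0.03) and Ndufv1 (-0.05) and grew for Ndufc1 (-0.23), Cox6c (-0.12) and Cox8a (-0.55). Every knockout array had lower spikes than every wild-type array, so spike level and genotype cannot be told apart. The 3' minus 5' signal of Actb was also lower on every knockout array, and it cannot be told apart from genotype either. No test is given for averages over these genes, because the genes were chosen with results of these hearts known.

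**Figure D4:**
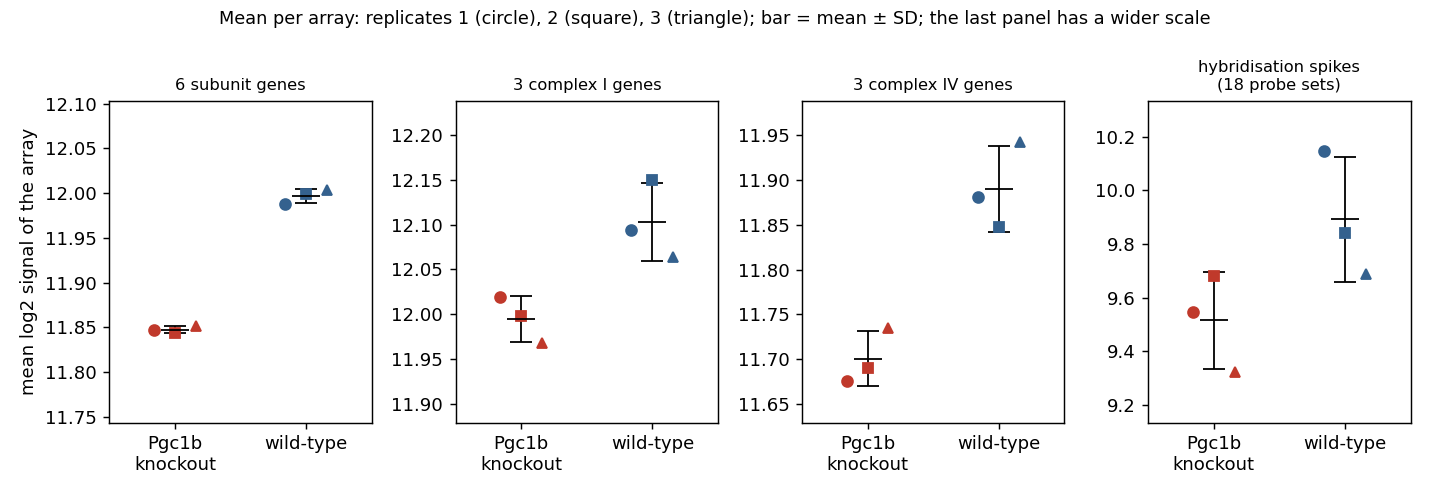
Mean log2 signal per array over the 6 subunit genes, the 3 complex I genes, the 3 complex IV genes and the 18 hybridisation spike probe sets, in knockout (red, left) and wild-type hearts (blue, right), with mean ± SD; the spike panel has a wider scale. Knockout and wild-type arrays are apart in all 4 panels, knockout lower, by a margin of 0.009 for the spikes.

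Complex I and complex IV were compared by the average of their 3 genes on each array. The complex I average was 11.99 ± 0.03 in knockout hearts and 12.10 ± 0.04 in wild-type hearts, a difference of -0.11. The complex IV average was 11.70 ± 0.03 in knockout hearts and 11.89 ± 0.05 in wild-type hearts (SD, n = 3 each), a difference of -0.19. Taken within each array, complex IV minus complex I was -0.34, -0.31 and -0.23 in knockout hearts and -0.21, -0.30 and -0.12 in wild-type hearts. The difference between the responses of the complexes was -0.08, and the groups overlapped. Cox8a (-0.32) had the largest part in the difference of the complex IV average between genotypes. Cox5a (-0.14) and Cox6c (-0.10) lay within the range of the complex I genes, from -0.02 to -0.18. The comparison of the complexes was not repeated without Cox8a. Signals of different probe sets are not comparable as levels, so these values bear on the response only.

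The lists of the respiratory chain were otherwise thinly covered. Of 38 listed nuclear complex I genes and 18 listed nuclear complex IV genes, 3 each had values, which are the 6 genes described. Of 21 complex IV assembly factors only Cox18, which inserts a core subunit into the membrane, was measured, at 6.79 in knockout and 6.83 in wild-type hearts with overlap. None of 16 complex I assembly factors, 4 complex II subunits and 10 genes of complex III and cytochrome c was among the genes measured. The same holds for the 13 listed PGC-1 coactivators and partner factors.

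The ATP synthase, which uses the proton gradient that complexes I and IV help to build, had 7 measured genes with its carriers. Of these, 6 had a lower mean in knockout hearts, against 47.6% of all genes, 5 had every knockout heart below every wild-type heart, against 9.92% of all genes, and limma called 0. Their median difference was -0.15, beside -0.13 for the 6 complex I and IV genes. The 2 with the smallest p were Atp5o and Atp5j2, at -0.28 and -0.21. Of the 6 complex I and IV genes, 5 had a mean signal of at least 11, all but Cox8a. Among these 5, Ndufc1 and Cox6c had every knockout heart below every wild-type heart. Among the 35 other genes at that level the median difference was 0.01. In 20.0% of the 35, or 7 genes, every knockout heart lay below every wild-type heart. These 7 genes include 5 of the ATP synthase list, all of whose 7 measured genes are among the 35.

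The genes whose profile over the 6 hearts came closest to that of the 6-gene average were Atp5o (root mean square difference 0.14 between scaled profiles), Mrpl43 (0.23), Casp6 (0.23), Lrrn1 (0.29) and Pdhb (0.32). Atp5o belongs to the ATP synthase, Mrpl43 to the mitochondrial ribosome and Pdhb to pyruvate dehydrogenase, while Casp6 is a caspase and Lrrn1 a membrane protein with leucine-rich repeats. The average hardly varied within a genotype, so closeness to it mostly follows the split between genotypes. The 6 genes are themselves part of the average. Among them Cox6c (0.21) and Ndufc1 (0.30) were as close to it. Cox8a (0.70), Cox5a (0.82) and Ndufv1 (0.96) were farther and Ndufb11 (1.17) farthest. Atp5o read 12.69, 12.65 and 12.68 in knockout hearts and 12.91, 12.94 and 13.00 in wild-type hearts. Lrrn1 stood near the bottom of the scale, at 2.81 ± 0.02 in knockout hearts and 2.93 ± 0.01 in wild-type hearts (SD, n = 3 each), where no detection call was used.

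**Figure D5:**
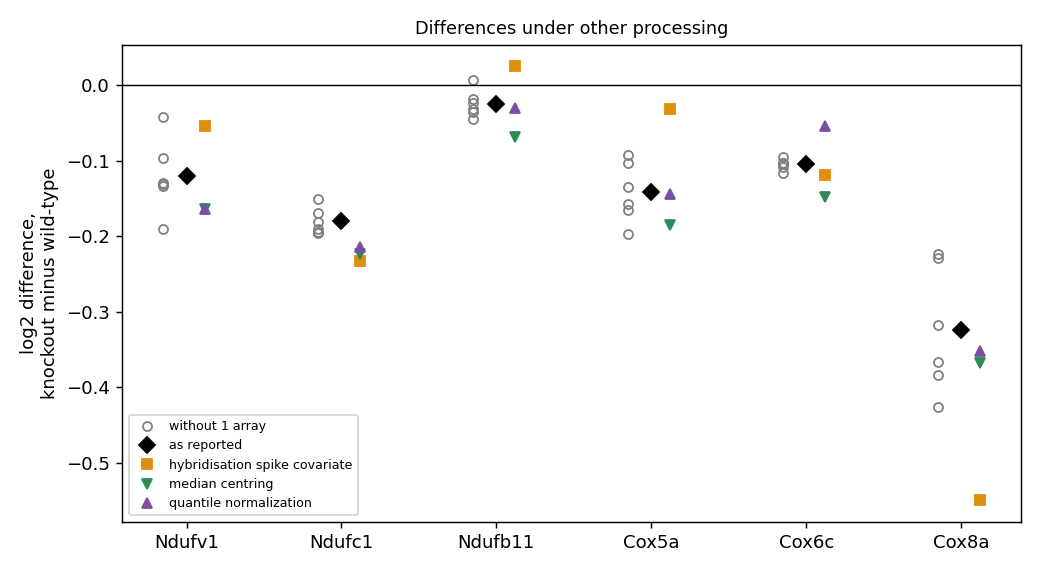
Log2 difference of each of the 6 genes (vertical axis) as reported (black diamonds), without each array in turn (open circles), after median centring or quantile normalization (triangles) and with the spike level as a covariate (orange squares). Ndufb11 crosses 0 at 2 settings, 0.01 and 0.03, and the other 5 genes stay below 0 at every setting drawn.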

How the data were processed

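The authors' deposited values are log2 signals of probe sets, 1 column per array; GCOS, Partek and RMA are named per the submitters' processing notes, without version, role or order, and no genome build is given in the sources used here. RMA sets all arrays to 1 distribution, so differences are relative to the other genes. Per the labels' protocols, RNA from snap-frozen hearts was amplified with a whole-transcriptome kit and again in the labelling reaction; its part in the spread between arrays was not tested. Of 45101 rows, 707 held values: 643 probe sets for genes and 64 controls. A platform annotation gave 1 symbol for 597 of the 643, several for 26 and none for 20; all 597 matched a RefSeq gene table by gene ID. Each of the 494 genes was represented by its brightest probe set. The comparison of genotypes used limma (version 3.58.1, run under R 4.3.3; two-sided, constant prior variance, no covariate), with Benjamini-Hochberg adjustment over all 494 genes, or over 643 probe sets for dimmer probe sets, and a call at an adjusted p under 0.05. The fit was tested on simulated data. For arrays, their number limits the precision. Of the named genes, all 6 subunit genes come first, then the 2 genes of smallest p of each respiratory chain list, all measured heart markers and the 5 genes most like the average. Other cell type markers are named because few were measured. The subunit genes and lists were chosen with earlier results of these data known. Replicate numbers 1 to 3 occur in both genotypes, and no label ties same-numbered hearts to each other. Promoter sequences are from RefSeq (GRCm38.p6).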

Additional observations from a re-analysis of the deposited data

How the results depend on the processing

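Each of the 6 genes was recomputed under 16 alternatives. Of these 96 values, 94 kept the sign and no gene was called by limma in any; the exceptions were Ndufb11 with the hybridisation spike covariate (0.0254) and without knockout replicate 3 (0.0069, with -0.0451 the lowest on leaving out single arrays), and the cause was not tested. The lowest adjusted p among them was 0.213. Some alternatives change only the variance or the genes fitted, repeat the reported difference exactly and could not change its sign. These are the fit over all probe sets, both other priors, the filter on signal level and the replicate block. The mean of probe sets also repeats it for genes with a single probe set. The average over the 6 genes (-0.149) was -0.160 after quantile normalization, -0.193 after median centring, which moves every gene alike within an array, and -0.114 without Cox8a, a choice made after seeing the data. The number of called genes was 0 in all alternatives except a prior variance that follows expression, which called 1. The 57 genes at an unadjusted p under 0.05 (28 higher and 29 lower) became 54 after median centring (14 higher and 40 lower) and lay between 34 and 74 on leaving out single arrays, with 34 without knockout replicate 2. The 96 genes without overlap became 74 after quantile normalization and 78 after median centring. On leaving out single arrays the count lay between 125 and 168, since fewer arrays overlap less. It was 168 without knockout replicate 1 and 150 without wild-type replicate 1. With the replicate number as a block 48 genes had an unadjusted p under 0.05 and 0 were called. Same-numbered hearts deviated together at -0.15, -0.08 and 0.18 (correlation of deviations over genes), and not every heart correlated best with its own number. The difference between the responses of complex I and IV kept its sign, lying between -0.127 (without wild-type replicate 2) and -0.0368 (without wild-type replicate 3) without single arrays, and was -0.0476 after quantile normalization. With 3 arrays per genotype the intervals of single genes span 0.286 to 0.596 on the log2 scale.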
